A study of Homo sapiens with 10 samples.

Results

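The NRF2 antioxidant genes described here are 10 genes chosen by name, HMOX1, NQO1, GCLC, GCLM, TXNRD1, SRXN1, SLC7A11, PRDX1, TXN and GSR. Each of the 10 symbols had 1 row among the 23284 genes of the expression table. The measurements came from K562 cells, an established human myelogenous leukemia line, treated for 48 h with the solvent DMSO or with 1 of 2 inhibitors of the bromodomains of the coactivators CREBBP and EP300. CBP30 and I-CBP112 were each given at 2 µM and at 5 µM, so that there were 5 groups with 2 biological replicates in each. Every sample was of the same cell line, the labels name no engineered allele, and the inhibitors were the only difference between groups that they give. Polyadenylated RNA was sequenced and expression was given as FPKM, fragments scaled by transcript length and by the number of fragments mapped in the library. Of the 10 genes, 9 reached a mean of 0.5 FPKM over the 10 samples and were tested together with the other genes that did so, 12788 in all. HMOX1 did not.

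NRF2, encoded by NFE2L2, is a transcription factor that is held at low levels by KEAP1, an adaptor that presents it to a CUL3 ubiquitin ligase. Oxidants and electrophiles modify KEAP1, NRF2 then builds up, pairs with a small MAF protein and binds antioxidant response elements near genes that make glutathione, reduce thioredoxin and detoxify quinones. CREBBP and EP300 are histone acetyltransferases that NRF2 can recruit, and their bromodomains bind acetylated lysines.

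Promoter sequence of 3 of the genes is shown because it holds, or lacks, the core of the antioxidant response element, TGACNNNGC. The promoter windows came from RefSeq, run from 250 bases before to 50 bases after an annotated start, and are tabulated on GRCh38.p14. Each window shown was found exactly once in GRCh37 (hg19), the build of the expression data, and the coordinates are of that build. Windows were matched for 6 of the 10 genes (NQO1, GCLC, GCLM, SRXN1 and TXN with 1 each and TXNRD1 with 2), and HMOX1, SLC7A11, PRDX1 and GSR had none. The 120 bases before each start are printed on the strand of the gene, and capitals mark matches to the core on either strand.
GCLM, chr1:94374987-94375106, minus strand: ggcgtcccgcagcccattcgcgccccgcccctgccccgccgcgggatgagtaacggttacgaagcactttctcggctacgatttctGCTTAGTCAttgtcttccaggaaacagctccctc
TXNRD1, upstream start, chr12:104609437-104609556, plus strand: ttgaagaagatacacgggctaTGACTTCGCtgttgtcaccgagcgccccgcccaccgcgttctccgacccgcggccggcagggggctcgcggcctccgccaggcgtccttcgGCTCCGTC
TXNRD1, downstream start, chr12:104680690-104680809, plus strand: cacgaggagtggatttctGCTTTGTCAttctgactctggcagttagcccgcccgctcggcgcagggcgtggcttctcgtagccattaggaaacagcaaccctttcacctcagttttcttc
SRXN1, chr20:633845-633964, minus strand: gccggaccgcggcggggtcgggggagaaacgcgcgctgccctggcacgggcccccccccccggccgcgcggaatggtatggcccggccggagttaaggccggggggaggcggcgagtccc

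The match in GCLM lay on the strand opposite to the gene at positions -34 to -26 from the start. The window of the upstream TXNRD1 start held a match at -99 to -91 and another on the opposite strand at -8 to 1, whose last base is not among those printed. That of the downstream TXNRD1 start held a match on the opposite strand at -102 to -94. No match was found in the windows of NQO1, GCLC, SRXN1 or TXN, which says only that these letters are not in those windows. In all, 2 of the 6 genes had a match, against 16.1% of the 27305 genes with a window. The related AP-1 site, TGACTCA, was in none of the 7 windows and in 4.95% of all 35116. It was searched on both strands, and an AP-1 site that is followed by GC matches the core as well.

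The sum of FPKM over all genes was 547504 to 689095 per sample, and the median of the genes tested was 11.1 to 11.6. Read counts were not among the files, so the depth behind a value is unknown. Replicates of a group correlated across genes with r of 0.962 to 0.976. Replicate 1 of 2 µM CBP30 stood apart. Its difference from replicate 2 followed transcript length with a Spearman rho of -0.62 across genes, against -0.162 to 0.296 in the other groups, and EEF1A1, a translation factor that every cell uses, was listed at 0 in it and at 5338 to 6661 in the other 9 samples. The 8 K562 markers tested (HBG1, HBG2, HBE1, TFRC, EPOR, KLF1, LMO2 and TAL1) were all detected, and their summed level was 1180.3 to 1196.1 FPKM with DMSO, 464 to 482 with CBP30 at 5 µM and 706 to 756 with I-CBP112 at 5 µM. Among 9 markers of other cell types, MS4A1, KRT5 and CDH5 were listed at 0 in every sample, while EPCAM was at 59.2 ± 0.723 FPKM (SD, n = 2) and CD3D at 16.5 ± 1.97 FPKM with DMSO. Their summed level was 76.5 to 78.4 FPKM with DMSO, 66.1 to 87.5 and 60.5 to 64.8 with 2 µM and 5 µM CBP30, and 66.9 to 69.2 and 67.9 to 69.98 with the same concentrations of I-CBP112. Of the 4 tested, CD3E, COL1A1 and CD3D rose with 5 µM CBP30 (by 1.01, 0.98 and 0.55 on the log2 scale, limma adjusted p of 0.000529, 9e-05 and 0.0184) and EPCAM fell by 0.85 (0.000989). At 2 µM CBP30, CD3E, CD3D and COL1A1 were higher, and with I-CBP112 only COL1A1 at 5 µM was called. Of the K562 markers 7 were lower with 5 µM CBP30, LMO2 most (-3.32), and TAL1 higher (0.43). The part of either marker list in the values of the antioxidant genes was not tested. Fewer cells of a type and less RNA per cell cannot be told apart in such bulk samples.

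Levels with DMSO spanned a wide range on the FPKM scale. PRDX1 was at 674 ± 18.5 FPKM (SD, n = 2) and TXN at 238 ± 6.07 FPKM, above 99.1% and 97.6% of the genes tested. TXNRD1 followed at 91.4 ± 2.92 FPKM and GSR at 43.4 ± 0.210 FPKM. NQO1 (23.5 ± 0.375 FPKM), GCLM (21.1 ± 0.168 FPKM), SRXN1 (19.5 ± 0.787 FPKM), GCLC (16.2 ± 0.514 FPKM) and SLC7A11 (12.7 ± 0.274 FPKM) lay closer together, and SLC7A11 was still above 52.1% of the genes tested. The DMSO replicates of neighbours in this order did not overlap.

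**Figure D1:**
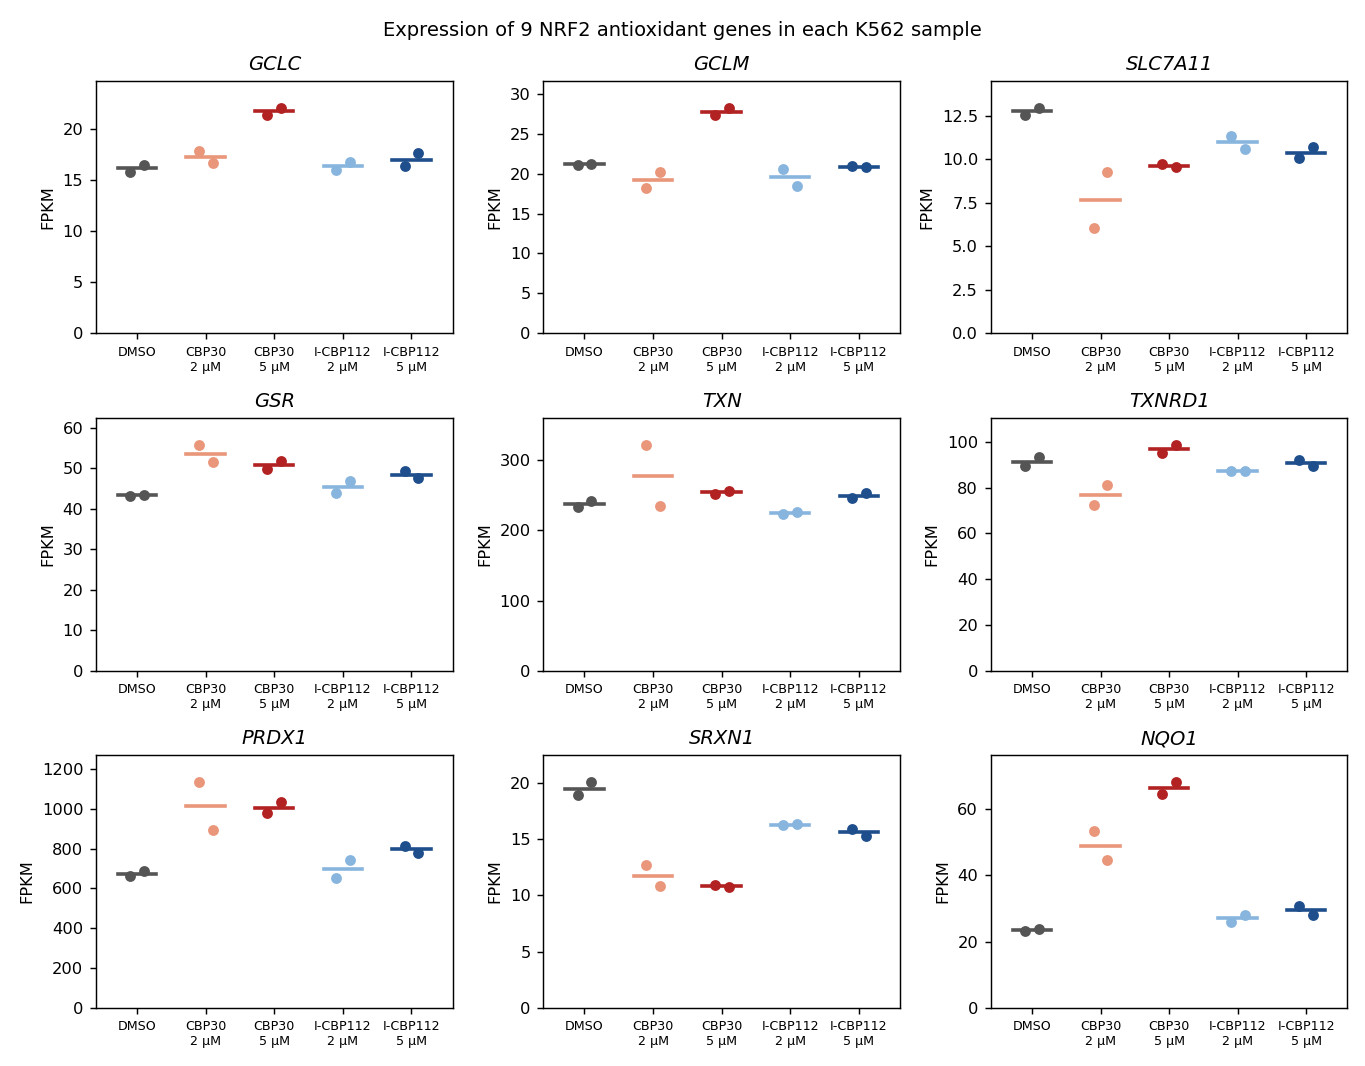
FPKM of the 9 antioxidant genes tested, 1 panel per gene on linear axes that start at 0, with points for the replicates and a line for the mean of each of the 5 groups. NQO1 ran from 23.2 FPKM with DMSO to 68.1 FPKM with 5 µM CBP30, and the points of SRXN1 with CBP30 all lay below those with DMSO.

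NQO1 showed the largest change. It encodes a reductase that takes quinones directly to hydroquinones with 2 electrons from NAD(P)H, and it lies at chr16:69740899-69760571 on the minus strand. Its replicates were at 23.2 and 23.8 FPKM with DMSO. CBP30 samples were at 53.3 and 44.7 FPKM for 2 µM and 64.6 and 68.1 FPKM for 5 µM, and I-CBP112 samples at 25.9 and 28.1 FPKM for 2 µM and 30.7 and 28.1 FPKM for 5 µM. Every treated sample was above both DMSO samples, and the 4 CBP30 samples were above all others. At 5 µM CBP30 the mean was 282% of that with DMSO, a log2 fold change of 1.46 ± 0.0902 (SE, n = 2 per group) with a limma adjusted p of 3.5e-05. With 2 µM CBP30 it was 209%, a log2 fold change of 1.02 (limma adjusted p of 0.000403). Fold changes here and throughout are on the log2(FPKM + 1) scale, which understates changes of genes at low levels. The means with I-CBP112, 115% at 2 µM and 125% at 5 µM of that with DMSO, did not pass the test (limma adjusted p of 0.413 and 0.0913).

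HMOX1, whose product opens heme into biliverdin, iron and carbon monoxide, lies at chr22:35776354-35790207. It was at 0.0322 FPKM in DMSO replicate 1 and was listed at 0 in the other 9 samples, so no fold change is given. A listed 0 need not mean absent RNA, as EEF1A1 was listed at 0 in replicate 1 of 2 µM CBP30. HMOX2, the constitutive relative of HMOX1, was tested and rose with 2 µM CBP30 by a log2 fold change of 0.36 (limma adjusted p of 0.029). It was not called in the other 3 comparisons with DMSO. BLVRB, a biliverdin reductase that erythroid cells also express, fell from 170 ± 0.967 FPKM with DMSO to 50.6 ± 1.49 FPKM with 5 µM CBP30, a log2 fold change of -1.73 (limma adjusted p of 0.000232). The summed K562 markers fell in the same samples, and their part in the BLVRB values was not tested.

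GCLC and GCLM encode the catalytic and the modifier subunit of glutamate-cysteine ligase, the rate-limiting enzyme of glutathione synthesis. They lie at chr6:53362139-53481768 and chr1:94350755-94375012, both on the minus strand. GCLC was at 15.8 and 16.5 FPKM with DMSO. The CBP30 replicates lay at 17.8 and 16.7 FPKM for 2 µM and 21.4 and 22.0 FPKM for 5 µM, and those of I-CBP112 at 16.0 and 16.8 FPKM for 2 µM and 16.4 and 17.6 FPKM for 5 µM. GCLM was at 21.0 and 21.3 FPKM with DMSO. Values for CBP30 were 18.1 and 20.2 FPKM for 2 µM and 27.3 and 28.2 FPKM for 5 µM, and values for I-CBP112 were 20.5 and 18.5 FPKM for 2 µM and 20.9 and 20.8 FPKM for 5 µM. For both subunits the 5 µM CBP30 samples were above all others, and the remaining samples of GCLC overlapped between groups.

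With 5 µM CBP30 the log2 fold change against DMSO was 0.41 ± 0.0595 (SE) for GCLC and 0.38 ± 0.0682 for GCLM, with limma adjusted p of 0.00141 and 0.00363. The group means were 134% and 131% of those with DMSO. At 2 µM CBP30 neither passed, with log2 fold changes of 0.09 for GCLC and -0.14 for GCLM (limma adjusted p of 0.282 and 0.165). GSS, which encodes the synthetase of the next step, was lower with 5 µM CBP30 by a log2 fold change of -0.28 (limma adjusted p of 0.0499).

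SLC7A11 encodes the cystine carrier of the exchanger that imports cystine for glutathione, and SLC3A2 encodes its heavy chain. SLC7A11 lies at chr4:139085251-139163503 on the minus strand, with a transcript of 9645 nt, the longest among the 10 genes. It was at 12.5 and 12.9 FPKM with DMSO. CBP30 samples were at 6.08 and 9.28 FPKM for 2 µM and 9.72 and 9.56 FPKM for 5 µM, and I-CBP112 samples at 11.3 and 10.6 FPKM for 2 µM and 10.1 and 10.7 FPKM for 5 µM. All 8 treated samples were below both DMSO samples, and the lowest was replicate 1 of 2 µM CBP30, the sample whose values followed transcript length. With 2 µM CBP30 the log2 fold change was -0.69 (limma adjusted p of 0.015). That call was lost when only the 2 groups compared were fitted (limma adjusted p of 0.162). Without replicate 1 of 2 µM CBP30 the log2 fold change was -0.42. With 5 µM CBP30 it was -0.37 ± 0.153 and did not pass (limma adjusted p of 0.0863). It passed there once the trend with transcript length was removed, at -0.50 (limma adjusted p of 0.000709), and it passed with the same fold change when either 2 µM CBP30 sample was left out (0.000927 and 0.000954). SLC3A2 fell with 5 µM CBP30 by a log2 fold change of -0.45 (limma adjusted p of 0.0171).

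GSR, on chromosome 8, encodes the reductase that returns oxidized glutathione to its reduced form. It was at 43.2 and 43.5 FPKM with DMSO. The CBP30 replicates lay at 55.7 and 51.4 FPKM for 2 µM and 49.7 and 51.9 FPKM for 5 µM, and those of I-CBP112 at 43.95 and 46.9 FPKM for 2 µM and 49.4 and 47.6 FPKM for 5 µM. Every treated sample was above both DMSO samples, and the CBP30 groups overlapped. The log2 fold change was 0.30 with 2 µM CBP30 and 0.22 ± 0.0583 (SE) with 5 µM CBP30, with limma adjusted p of 0.00947 and 0.0173. The call at 2 µM was lost when only the 2 groups compared were fitted (limma adjusted p of 0.126). The call at 5 µM was lost without DMSO replicate 1 (limma adjusted p of 0.0806), without DMSO replicate 2 (0.0688) and without 5 µM CBP30 replicate 2 (0.103).

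TXN encodes thioredoxin, a small protein that reduces disulfides, and TXNRD1 the selenium-containing reductase that recharges it with electrons from NADPH. They lie at chr9:113006090-113018787 and chr12:104609557-104744085. TXN was at 234 and 242 FPKM with DMSO. Values for CBP30 were 322 and 234 FPKM for 2 µM and 253 and 256 FPKM for 5 µM, and values for I-CBP112 were 223 and 226 FPKM for 2 µM and 246 and 253 FPKM for 5 µM. The single high value, 322 FPKM, was again replicate 1 of 2 µM CBP30, and the TXN transcript, at 737 nt, is the shortest of the 10. TXN passed the test in no comparison with DMSO, with log2 fold changes of -0.08 to 0.21. At 5 µM CBP30 its log2 fold change of 0.10 became 0.25 (limma adjusted p of 0.00281) once the length trend was removed, and the value of 0.10 itself passed when either 2 µM CBP30 sample was left out (0.0298 and 0.0300).

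TXNRD1 was at 89.4 and 93.5 FPKM with DMSO. CBP30 samples were at 72.3 and 81.3 FPKM for 2 µM and 95.2 and 98.6 FPKM for 5 µM, and I-CBP112 samples at 87.5 and 87.2 FPKM for 2 µM and 92.3 and 89.4 FPKM for 5 µM. The 2 µM CBP30 samples were the lowest and the 5 µM CBP30 samples the highest. At 2 µM CBP30 it fell by 0.25 on the log2 scale (limma adjusted p of 0.0244). That call was lost without DMSO replicate 1 (limma adjusted p of 0.0707), without DMSO replicate 2 (0.129) and with quantile normalization (0.0647). At 5 µM the log2 fold change of 0.08 ± 0.0639 (SE) did not pass (limma adjusted p of 0.32).

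PRDX1 encodes a peroxiredoxin that reduces hydrogen peroxide with electrons from thioredoxin, and SRXN1 encodes sulfiredoxin, which repairs peroxiredoxins whose cysteine has been overoxidized. They lie at chr1:45976586-46008404 and chr20:627259-633844, both on the minus strand. PRDX1 was at 661 and 687 FPKM with DMSO. The CBP30 replicates lay at 1133 and 896 FPKM for 2 µM and 979 and 1032 FPKM for 5 µM, and those of I-CBP112 at 654 and 744 FPKM for 2 µM and 813 and 779 FPKM for 5 µM. The CBP30 samples were all above those of the other groups, and the 2 µM I-CBP112 samples overlapped with DMSO. The log2 fold change was 0.58 ± 0.119 (SE) with 5 µM CBP30 and 0.58 with 2 µM, with limma adjusted p of 0.00652 and 0.0113. Without replicate 1 of 2 µM CBP30 the latter was 0.41. The call at 2 µM was lost when only the 2 groups compared were fitted (limma adjusted p of 0.151).

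SRXN1 was at 18.95 and 20.1 FPKM with DMSO. Values for CBP30 were 12.7 and 10.9 FPKM for 2 µM and 10.9 and 10.7 FPKM for 5 µM, and values for I-CBP112 were 16.2 and 16.3 FPKM for 2 µM and 15.9 and 15.3 FPKM for 5 µM. All treated samples were below both DMSO samples, and the CBP30 samples were below all I-CBP112 samples. It fell by 0.80 ± 0.0728 (SE) on the log2 scale with 5 µM CBP30, to 55.4% of the mean with DMSO (limma adjusted p of 0.000182). With 2 µM CBP30 the log2 fold change was -0.69 (limma adjusted p of 0.000835). That call was lost when only the 2 groups compared were fitted (limma adjusted p of 0.0743). An annotated readthrough gene model on the same strand overlaps SRXN1 and has no row in the table, so reads of the pair cannot be told apart.

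Of the 9 genes tested, 6 passed with 5 µM CBP30, NQO1, PRDX1, GCLC, GCLM and GSR higher and SRXN1 lower. In that comparison 46.6% of all genes tested were called, 21.2% higher and 25.4% lower. With 2 µM CBP30, NQO1, PRDX1 and GSR were higher and SRXN1, SLC7A11 and TXNRD1 lower, also 6 of 9, where 32.1% of all genes tested were called, 15.9% higher and 16.3% lower. The median log2 fold change of the 9 genes was 0.22 at 5 µM and 0.09 at 2 µM, beside -0.01 and 0.01 over all genes tested. These comparisons share the DMSO samples.

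NQO1, SRXN1, GCLC, GCLM and PRDX1 stayed past the threshold with 5 µM CBP30 under each of the 20 other settings tried. The count with 2 µM CBP30 fell without either DMSO sample, as did the calls over all genes. When only the 2 groups compared were fitted the count was 1, NQO1, where 164 of 12788 genes were lower and 143 higher.

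**Figure D2:**
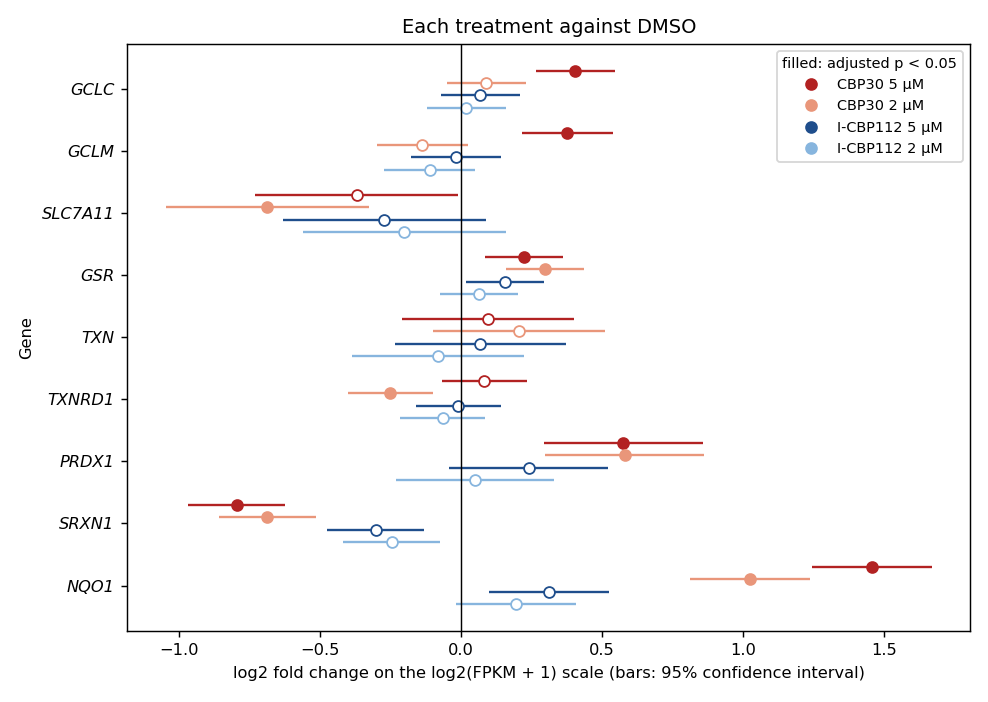
Log2 fold change against DMSO of the 9 genes tested for each inhibitor and concentration, with 95% confidence intervals from limma and filled points where the adjusted p was below 0.05. NQO1 reached 1.46 with 5 µM CBP30, SRXN1 -0.80, and no point for I-CBP112 was filled.

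I-CBP112 changed none of the 9 genes past the limma threshold at either concentration. At 5 µM 7.12% of all genes tested were called, and 1.6% at 2 µM. At an unadjusted p under 0.05, 3 of the 9 genes were counted at 5 µM, NQO1, SRXN1 and GSR, where 22% of all genes tested were, and 1 at 2 µM, SRXN1, where 13.8% were. The log2 fold changes at 5 µM ran from -0.30 for SRXN1 to 0.31 for NQO1, with a median of 0.07. The limma adjusted p of SRXN1 was 0.0541 at 5 µM and 0.186 at 2 µM.

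Whether I-CBP112 counts as changing these genes depended on settings. With the length trend removed, NQO1, PRDX1 and SRXN1 were called at 5 µM, where 927 of 12130 genes were lower and 930 higher. The same 3 genes were called when only the 2 groups compared were fitted, where 856 of 12788 genes were lower and 805 higher. Leaving out replicate 1 or replicate 2 of 2 µM CBP30 left 1 sample in that group. It raised the calls at 5 µM I-CBP112, those over all genes as well as those among these genes. The log2 fold changes of GSR, NQO1, SLC7A11 and SRXN1 at 5 µM I-CBP112 did not move. Those 2 CBP30 samples enter this comparison through the shared estimate of the spread, and the filter stayed as set on all 10 samples. At 2 µM I-CBP112 SRXN1 was also called with the length trend removed, where 266 of 12130 genes were lower and 298 higher.

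The CBP30 concentrations were compared next. Of the 9 genes, 4 were higher at 5 µM than at 2 µM, GCLM by a log2 fold change of 0.51 (limma adjusted p of 0.00338), NQO1 by 0.43 (0.0127), TXNRD1 by 0.33 (0.01) and GCLC by 0.32 (0.00956). None was lower, where 38.9% of all genes tested were called, 17.6% higher and 21.3% lower at 5 µM. For GCLM and TXNRD1 the 2 µM means were below DMSO and the 5 µM means above it. SRXN1 and GSR differed between concentrations by -0.11 and -0.07 on the log2 scale, without passing (limma adjusted p of 0.261 and 0.33).

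Leaving out 1 sample moved the count, down without either 5 µM CBP30 sample and up without replicate 2 of 2 µM CBP30. The calls over all genes moved the same way. Under all settings tried the log2 fold change ran from 0.39 to 0.59 for GCLM and 0.31 to 0.57 for NQO1. It ran from 0.25 to 0.50 for TXNRD1 and 0.27 to 0.36 for GCLC. PRDX1 moved by -0.004 between the concentrations (limma adjusted p of 0.99). That value turned to 0.33 (limma adjusted p of 0.00364) with the length trend removed and to 0.39 (0.0023) with quantile normalization. TXN turned likewise from -0.11 to 0.24 (limma adjusted p of 0.00809) with the length trend removed.

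Between 5 µM and 2 µM of I-CBP112 none of the 9 genes passed the limma test, and 0.0626% of all genes tested were called. None of the 9 had an unadjusted p under 0.05, which 6.05% of all genes tested did. The test of whether the concentration effect of CBP30 differed from that of I-CBP112 called none of the 9 genes, against 4.94% of all genes tested. At an unadjusted p under 0.05 it counted 4, NQO1, GCLC, GCLM and TXNRD1, where 34.7% of all genes tested were. GCLM had the largest difference, 0.42 on the log2 scale (limma adjusted p of 0.0543). Leaving out either 2 µM CBP30 sample left 1 sample in that group and raised the calls over all genes as well as those of the 9. The difference for GCLM was 0.35 without replicate 1 and 0.49 without replicate 2.

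The inhibitors were then set against each other at matched concentrations, 9 genes at each of 2 concentrations. At 5 µM the level with CBP30 was higher than with I-CBP112 for NQO1 by a log2 fold change of 1.15 (limma adjusted p of 0.000272), for GCLM by 0.39 (0.00555) and for GCLC by 0.34 (0.00609), and lower for SRXN1 by a log2 fold change of -0.49 (0.00306). Thus 4 of 9 were called, where 31.4% of all genes tested were, 13.6% higher and 17.9% lower with CBP30. PRDX1 was higher by 0.34 without passing (limma adjusted p of 0.0703), with a 95% confidence interval of 0.06 to 0.62. The intervals of TXN (-0.28 to 0.33), GSR (-0.07 to 0.20), TXNRD1 (-0.06 to 0.24) and SLC7A11 (-0.46 to 0.26) included 0. GCLC missed the threshold without replicate 2 of 5 µM CBP30 (limma adjusted p of 0.0505) and without replicate 1 of 5 µM I-CBP112 (0.0507).

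At 2 µM the level with CBP30 was higher for NQO1 by 0.83 (limma adjusted p of 0.00299), PRDX1 by 0.53 (0.0301) and GSR by 0.23 (0.0399), and lower for SRXN1 by a log2 fold change of -0.44 (0.0114). Here too 4 of 9 were called, where 15.6% of all genes tested were, 7.13% higher and 8.45% lower with CBP30. GCLC and GCLM differed by 0.07 and -0.03, with 95% confidence intervals of -0.07 to 0.21 and -0.19 to 0.14. SLC7A11 was at -0.49 with an interval of -0.85 to -0.13 and did not pass (limma adjusted p of 0.0699). NQO1 and SRXN1 alone were called with a block for the replicate number, where 800 of 12788 genes were lower and 619 higher. Leaving out 1 sample also moved the count, up or down with the sample, and the calls over all genes moved too. Under all settings tried the log2 fold change ran from 0.71 to 0.95 for NQO1 and 0.33 to 0.70 for PRDX1. It ran from 0.18 to 0.29 for GSR and -0.54 to -0.34 for SRXN1.

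**Figure D3:**
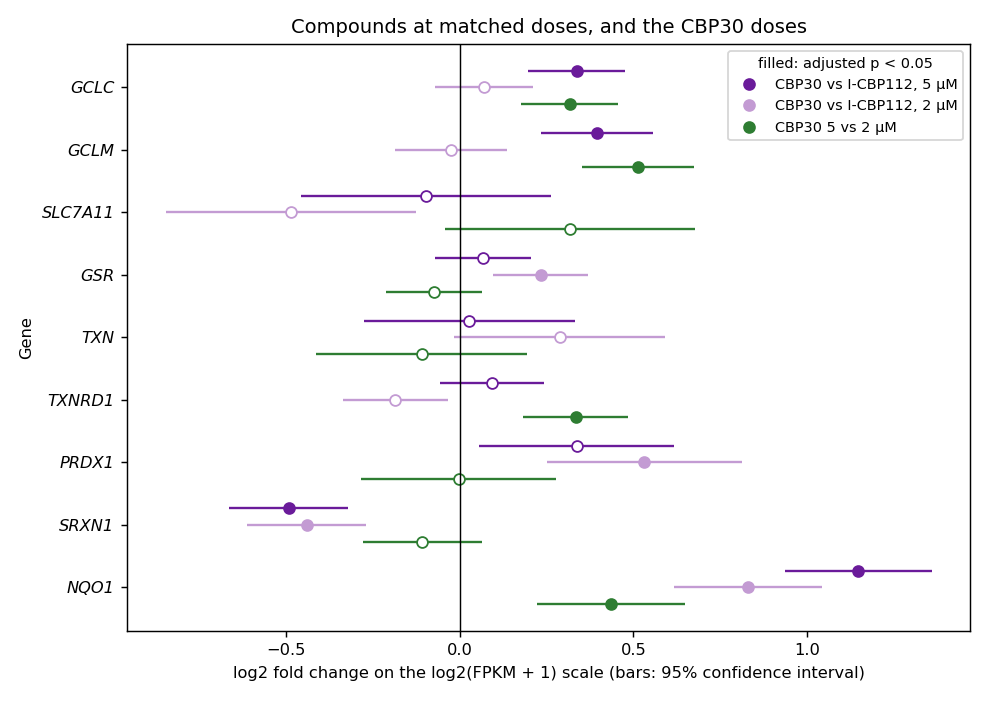
Log2 differences of the 9 genes tested between CBP30 and I-CBP112 at each concentration and between 5 µM and 2 µM of CBP30, with 95% confidence intervals from limma and filled points where the adjusted p was below 0.05. NQO1 differed between inhibitors by 1.15 at 5 µM and 0.83 at 2 µM, and GCLM rose by 0.51 between the CBP30 concentrations.

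Over the 10 samples the genes fell into patterns that were not shared by all of them. As a description, with samples of the same groups as points, NQO1 was most like PRDX1 (Pearson r of 0.929), GCLC was most like NQO1 (0.860) and GCLM most like GCLC (0.819). TXNRD1 was most like GCLM (0.749), SLC7A11 most like TXNRD1 (0.682), SRXN1 most like SLC7A11 (0.646) and TXN most like PRDX1 (0.770). PRDX1 and GSR were most like each other (0.958). SRXN1 was least like NQO1 (-0.937), and SLC7A11 was least like GSR (-0.921). The sample whose values followed transcript length was among the points. It held the highest values of PRDX1, GSR and TXN and the lowest of SLC7A11, and its part in these correlations was not tested. Of the 8997 genes whose mean reached 5 FPKM, those most like NQO1 were MAGED2 (0.996), GNAI2 (0.992), HEXIM1 (0.991), RBM23 (0.991) and INSIG2 (0.989).

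The regulators of NRF2 were described from a list of 18 genes, all of which were tested. With 5 µM CBP30 6 were lower and 4 higher, 55.6% of the list beside 46.6% of all genes tested. NFE2L2 itself was at 43.2 ± 2.37 FPKM (SD, n = 2) with DMSO, 50.8 ± 1.38 with 2 µM CBP30, 47.3 ± 0.694 with 5 µM CBP30, 48.0 ± 1.92 with 2 µM I-CBP112 and 51.8 ± 0.419 with 5 µM I-CBP112. All 8 treated samples were above both DMSO samples. It rose with 2 µM CBP30 by a log2 fold change of 0.23 (limma adjusted p of 0.0194) and with 5 µM I-CBP112 by 0.26 (0.0372), and its 0.13 with 5 µM CBP30 did not pass.

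KEAP1, the inhibitor of NRF2, fell from 34.5 ± 2.35 FPKM with DMSO to 26.0 ± 0.395 FPKM with 5 µM CBP30, a log2 fold change of -0.40 (limma adjusted p of 0.0167). CUL3, the scaffold of its ligase, rose by 0.35 (limma adjusted p of 0.00848). SQSTM1, an autophagy receptor that binds KEAP1 and is also an NRF2 target, rose by 0.48 (0.00692). GSK3B, a kinase that marks NRF2 for another route of degradation, rose from 6.08 ± 0.154 to 11.4 ± 0.325 FPKM, by 0.81 (limma adjusted p of 0.000594).

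Among the partners and relatives of NRF2, the small MAF genes MAFF and MAFG fell with 5 µM CBP30 by 0.82 and 0.25 on the log2 scale (limma adjusted p of 0.000867 and 0.00469). NFE2, an erythroid relative that binds similar elements with small MAF proteins, was at 77.8 ± 0.726 FPKM with DMSO, 30.4 ± 5.25 with 2 µM CBP30, 19.6 ± 0.0139 with 5 µM CBP30, 52.9 ± 0.00990 with 2 µM I-CBP112 and 47.8 ± 0.976 with 5 µM I-CBP112. Its groups did not overlap. It fell by 1.93 on the log2 scale with 5 µM CBP30 (limma adjusted p of 1.65e-05), by 1.33 with 2 µM CBP30 (0.000219) and by 0.69 with 5 µM I-CBP112 (0.00952). The summed K562 markers fell in the same samples, and their part in this was not tested. BACH1, which represses HMOX1 and other targets, did not pass in any comparison with DMSO, nor did MAFK, BTRC, CREBBP or EP300, the last of which are the proteins the inhibitors bind. Of the remaining regulators, NFE2L1 and NFE2L3 fell by 0.26 and 0.30 on the log2 scale and FBXW11 rose by 0.26 with 5 µM CBP30 (limma adjusted p of 0.00474, 0.011 and 0.0288). BACH2 fell by 0.53 and RBX1 rose by 0.45 with 2 µM CBP30 (limma adjusted p of 0.0175 and 0.045). Their transcripts are 9215 nt and 1169 nt long. Replicate 1 of that group tended to lie below replicate 2 for long transcripts and above it for short ones. The part of that trend in these 2 changes was not tested.

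Further genes known as NRF2 targets formed a list of 30, of which 23 were tested. With 5 µM CBP30 9 were lower and 5 higher, 60.9% of those tested beside 46.6% of all genes tested (25.4% lower and 21.2% higher), with a median log2 fold change of -0.17 beside -0.01 over all genes tested. EPHX1, a microsomal epoxide hydrolase, rose from 7.51 ± 0.354 FPKM with DMSO to 17.7 ± 0.156 FPKM, a log2 fold change of 1.14 (limma adjusted p of 0.00033), and rose by 0.56 with 5 µM I-CBP112 (0.037). FTL, the ferritin light chain, rose by 0.61 (limma adjusted p of 0.0157), though ferritin genes have near-identical copies among which reads can be split. The aldo-keto reductase AKR1C1 fell by 1.39 on the log2 scale (limma adjusted p of 6.28e-05), and it shares much of its sequence with AKR1C2. SLC48A1, a heme transporter, was the other gene of the list called with 5 µM I-CBP112, at -0.37 (limma adjusted p of 0.0063).

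Of 23 other glutathione genes 19 were tested, and 8 were lower and 3 higher with 5 µM CBP30, 57.9% of those tested beside 46.6% of all genes tested (25.4% lower and 21.2% higher). GLRX, a glutaredoxin that uses glutathione to reduce mixed disulfides, rose from 3.20 ± 0.191 FPKM with DMSO to 13.2 ± 1.34 FPKM, a log2 fold change of 1.76 (limma adjusted p of 0.000412). GPX4, which reduces lipid peroxides with glutathione, rose by 0.53 (limma adjusted p of 0.0441). GSTO1 fell by 0.81 and GLRX5, which serves iron-sulfur cluster assembly, by 0.65 on the log2 scale (limma adjusted p of 0.00392 and 0.00389). No gene of this list passed the limma test with I-CBP112, where 7.12% of all genes tested were called at 5 µM and 1.6% at 2 µM. At an unadjusted p under 0.05, 5 of the 19 were counted at 5 µM, where 22% of all genes tested were. At 2 µM 4 were, where 13.8% of all genes tested were.

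The 14 other thioredoxin and peroxiredoxin genes were all tested. At 5 µM CBP30 NXN and TXNIP, which binds thioredoxin, were higher by 0.58 and 0.18 on the log2 scale (limma adjusted p of 0.000319 and 0.0237), while the mitochondrial pair TXN2 and TXNRD2 fell by 0.43 and 0.38 (0.0309 and 0.0446). These 4 were 28.6% of the list, beside 46.6% of all genes tested, and none was a peroxiredoxin. NXN was also higher with 5 µM I-CBP112, by 0.31 (limma adjusted p of 0.0266).

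Of the 4 superoxide and hydrogen peroxide enzymes, SOD3 and CAT were called in all 4 comparisons with DMSO, which share the DMSO samples. Of all genes tested 46.6% were called with 5 µM CBP30 and 32.1% with 2 µM CBP30. With I-CBP112 7.12% were called at 5 µM and 1.6% at 2 µM. SOD3, the extracellular superoxide dismutase, was at 2.85 ± 0.317 FPKM with DMSO, 8.11 ± 1.27 with 2 µM CBP30, 9.0 ± 0.136 with 5 µM CBP30, 4.80 ± 0.165 with 2 µM I-CBP112 and 6.85 ± 0.142 with 5 µM I-CBP112. The log2 fold changes were 1.38 for CBP30 and 1.03 for I-CBP112 at 5 µM (limma adjusted p of 6.89e-05 and 0.00237). CAT, which encodes catalase, fell from 45.4 ± 1.75 FPKM with DMSO to 25.5 ± 0.486 FPKM for CBP30 and 35.1 ± 1.28 FPKM for I-CBP112 at 5 µM, log2 fold changes of -0.81 and -0.36 (limma adjusted p of 4.35e-05 and 0.0102). SOD2, the mitochondrial dismutase, fell by 0.22 on the log2 scale with 5 µM CBP30 (limma adjusted p of 0.0288).

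NQO2, the relative of NQO1 that uses another electron donor, rose by 0.44 with 5 µM CBP30 (limma adjusted p of 0.0162) and by 0.70 with 2 µM CBP30 (0.00453). Because SLC7A11 is also a target of ATF4, the factor of the amino acid response, a list of 10 genes made of ATF4 and its targets was set beside it. At 5 µM CBP30 9 of the 10 were lower and none higher, where 25.4% of all genes tested were lower and 21.2% higher, with a median log2 fold change of -0.64. TRIB3 fell from 194 ± 2.73 to 64.6 ± 0.943 FPKM and ASNS, the asparagine synthetase, from 460 ± 2.16 to 235 ± 9.94 FPKM (log2 fold changes of -1.57 and -0.97, limma adjusted p of 5.39e-05 and 7.16e-05). With 2 µM CBP30 1 of the 10 was lower and 1 higher, where 32.1% of all genes tested were called. None of the 10 passed the limma test with I-CBP112, where 7.12% of all genes tested were called at 5 µM and 1.6% at 2 µM. None had an unadjusted p under 0.05 at either concentration, which 22% of all genes tested did at 5 µM and 13.8% at 2 µM.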

How the data were processed

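K562 RNA was sequenced by the authors with a stranded polyA protocol and single reads of 50 bases, and aligned to hg19 with the Nextpresso pipeline. The submitters' processing notes name TopHat2 2.0.10, Bowtie 1.0.0, SAMtools 0.1.19, Cufflinks 2.2.1, Cuffnorm and FastQC, without roles. The values deposited by the authors are FPKM per gene and sample, in 10 columns. No read counts were used, so the main test was made with limma 3.58.1 (R 4.3.3) after a log2(FPKM + 1) transformation (1 fit of the 5 groups, trended eBayes, 5 residual degrees of freedom, Benjamini-Hochberg adjustment over 12788 genes whose mean reached 0.5 FPKM, called below 0.05). All samples enter 1 fit, so each comparison uses the spread of all groups. The labels call the samples biological replicates, and p-values measure only the spread between these samples. The 10 genes and the other gene lists were chosen with earlier results of these data known. From each of the other lists but the cell type markers the text names the 2 called genes that rose most and the 2 that fell most with each inhibitor at 5 µM, and it names all regulators tested and, for each of the 9 genes tested, the one of them most like it. HMOX2 and GSS were named for their role, after their values were seen. Of the cell type markers 1 gene of each list is not reported here. Coordinates are from GENCODE lifted to GRCh37. On simulated data 184 of 200 changed genes were recovered with 9 other calls (5 µM CBP30 against DMSO, 12788 genes). The median log2 fold change of the changed genes there, taken in the direction of each change, was 1.01. Recovery of smaller changes was not tested. Alternatives were another pseudocount (0.1), no filter, a filter at 5 FPKM, median centring, quantile normalization, no trend, a fit to the groups of 1 comparison, a block for the replicate number, removal of the trend with transcript length (12130 genes with a length), both together, and each sample left out.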

Additional observations from a re-analysis of the deposited data

How the results depend on the processing

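The replicate numbers did not pair the samples: deviations of same-numbered samples from their group means correlated between -0.0681 and 0.0939. With a block for the replicate number the call of PRDX1 and that of GSR between the inhibitors at 2 µM were lost, which took that count from 4 to 2, and no other call changed. Counts out of 9 that moved by over 1.5 times come first, and the causes were not tested. Fitting only the groups compared gave 1 for 2 µM CBP30, 3 for 5 µM I-CBP112, 0 between the CBP30 concentrations and 0 between the inhibitors at 2 µM. Of all 12788 genes it called 164 lower and 143 higher, 856 and 805, 4 and 2, and 9 and 5 in these comparisons. Quantile normalization gave 1 for 5 µM I-CBP112, 7 between the inhibitors at 5 µM and 2 for the difference of the concentration effects. Of all 12788 genes it called 489 lower and 551 higher, 2254 and 2233, and 577 and 436 there. Removing the length trend gave 3 for 5 µM I-CBP112, 1 for 2 µM I-CBP112, 7 between the inhibitors at 5 µM and 1 for the difference, and with the block as well 3, 0, 7 and 0. Under both settings more genes were called over all genes than in the main fit in each of these comparisons, though fewer genes were tested. A filter at 5 FPKM gave 1 for the difference, where 426 of 8997 genes were lower and 175 higher. Smaller moves took 5 µM CBP30 from 6 to 7 (quantile normalization) or 8 (only the groups compared, or the length trend removed), 2 µM CBP30 from 6 to 5 (quantile normalization), the CBP30 concentrations from 4 to 5 (quantile normalization) or 6 (length trend), the inhibitors at 5 µM from 4 to 5 (only the groups compared), and those at 2 µM from 4 to 3 (no filter) or 6 (length trend). With these smaller moves the calls over all genes changed too, not always in the same direction. Leaving out 1 sample leaves 1 sample in its group. It moved the count of every comparison but that between the I-CBP112 concentrations, and it moved the calls over all genes as well. Between the CBP30 concentrations PRDX1 reversed from -0.004 to 0.39 with quantile normalization, and to 0.33 with the length trend removed with or without the block. TXN reversed from -0.11 to 0.24 under the latter settings. A sample left alone in its group was assumed to vary like the others. Depth is unknown, so no limit of detection is given for HMOX1.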
